A study of Homo sapiens with 24 samples.

Results

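The 8 libraries described here were made from HEK293T cells, a human embryonic kidney line, after transfection for 48 h with siRNA against RPRD1B. They were compared with the 8 HEK293T libraries made without that siRNA, and both sets come from a series of 24 libraries. The siRNA was given alone (RPRD1B_KD), with RPRD1A siRNA (titled RPRD1A_RPRD1A_KD), with RPRD2 siRNA (RPRD1B_RPRD2_KD) or with both (RPRD1A_RPRD1B_RPRD2_KD). The matching libraries without it are the control siRNA (CTRL), RPRD1A_KD, RPRD2_KD and RPRD1A_RPRD2_KD. Every group has 2 replicates, so RPRD1B siRNA was compared in 4 backgrounds that differ in the other siRNAs. At the end they are set beside 4 groups of Flp-In T-REx 293 cells, also 2 libraries each. FLP_TET and RPRD1B_FL_TET were given tetracycline for 48 h, while RPRD1B_FL and FLP were not. The labels do not explain the ending FL. Membership was taken from the names under which the counts were deposited: the table of the group titled RPRD1A_RPRD1A_KD is named for 1A and 1B, although its title names RPRD1A in both positions. The labels give neither the siRNA sequences nor how many siRNAs were used per gene, and they do not say whether the replicates were separate cultures. A response to lower RPRD1B and a response to the siRNA itself therefore cannot be told apart in these groups, and p-values measure the spread between these libraries, which may be technical.

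RPRD1A, RPRD1B and RPRD2 are nuclear proteins with a CTD-interaction domain, the fold that binds the phosphorylated repeats of the C-terminal domain of RNA polymerase II. RPRD1A and RPRD1B are known to associate with the polymerase and with RPAP2, a phosphatase of that domain. RPRD1B, also named CREPT, has been studied as a promoter of CCND1 transcription and Wnt signalling in tumour cells. The series was designed to ask how RPRD proteins affect the amount of RNA present at steady state.

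The libraries read polyadenylated RNA near the 3′ end of transcripts and hold 1817246 to 3135625 counts in genes each, and a floor of 3 counts was worth 1.00 to 1.71 CPM, counts scaled to the library size. The second RPRD1A_RPRD2_KD library, which is among those without RPRD1B siRNA, stood apart: its score on the first principal component was -59.6 against -5.28 to 16.3 in the other 15 libraries. Across 8685 genes, Spearman's correlation between a gene's deviation in that library and its GC content was 0.452, against -0.234 to 0.119 in the others. Replicate number also separated the libraries, since reads outside genes were 34.3 to 36.7% of the reads in replicate 1 and 27.4 to 29.8% in replicate 2. Values are from an additive fit of all 16 libraries, with terms for replicate number, RPRD1A siRNA and RPRD2 siRNA, unless stated otherwise. For the counts of calls and the leading genes the same model fitted without the library that stood apart is given as well. The filter on low counts was then run again. As 1 library was left in that group, it asked for the cutoff in 1 library instead of 2, and 12255 genes were tested instead of 11834. Of 12 HEK293 marker genes, 10 were tested and none was called, and hepatocyte and endothelial markers summed to at most 1.06 CPM in any library. Blood cell markers summed to 7.92 to 23.7 CPM with RPRD1B siRNA and 10.4 to 21.4 CPM without it, with 4 of the 6 at 0 in every library, and fibroblast markers to 8.64 to 17.9 and 7.65 to 14.1 CPM, with 1 of the 5 at 0.

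RPRD1B mRNA (chr20:38033546-38127780, GRCh38, + strand) was measured at 3.99 to 14.8 CPM, median 9.31, in the 8 libraries with RPRD1B siRNA. It was measured at 19.4 to 37.7 CPM, median 26.3, in the 8 libraries without it. No library with the siRNA reached the lowest library without it. The fitted log2 fold change was -1.53 (SE 0.16, adjusted p 9.00e-06), and it was -1.55 (SE 0.15) without the library that stood apart. The group with the ambiguous title was measured at 14.3 and 8.11 CPM, within the range of the other libraries with RPRD1B siRNA and below every library without it. Compared with the same-numbered library of the same background, RPRD1B was lower in 8 of 8 pairs, at 15.9 to 62.9% of the level without the siRNA. These values rest on 8 to 32 counts per library with the siRNA and 43 to 87 without it. Averaged over the backgrounds, the targets of the other siRNAs were not called for RPRD1B siRNA: on the log2 scale RPRD1A differed by -0.24 (SE 0.15, adjusted p 0.607) and RPRD2 by 0.19 (SE 0.10, adjusted p 0.518). RPRD1A was uneven across the backgrounds. With no other siRNA it was at 86.4 and 102 CPM in RPRD1B_KD and at 156 and 166 CPM in CTRL, a log2 difference of -0.77 (SE 0.18). RPRD2_KD, which holds no RPRD1B siRNA, was also below CTRL, at 75.0 and 99.7 CPM. In the other backgrounds RPRD1A differed by 0.01 (RPRD1A siRNA), -0.18 (RPRD2 siRNA) and 0.45 (both). In the groups with RPRD1A siRNA it was itself the target and stood at 14.7 to 27.6 CPM. The interaction with RPRD1A siRNA was 0.70 (SE 0.23, unadjusted p 0.00524, adjusted p 0.922) and that with RPRD2 siRNA 0.55 (SE 0.21, adjusted p 0.941). In the same fit, RPRD1A siRNA gave RPRD1A a log2 fold change of -2.24, and RPRD2 siRNA gave RPRD2 one of -1.13.

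**Figure D1:**
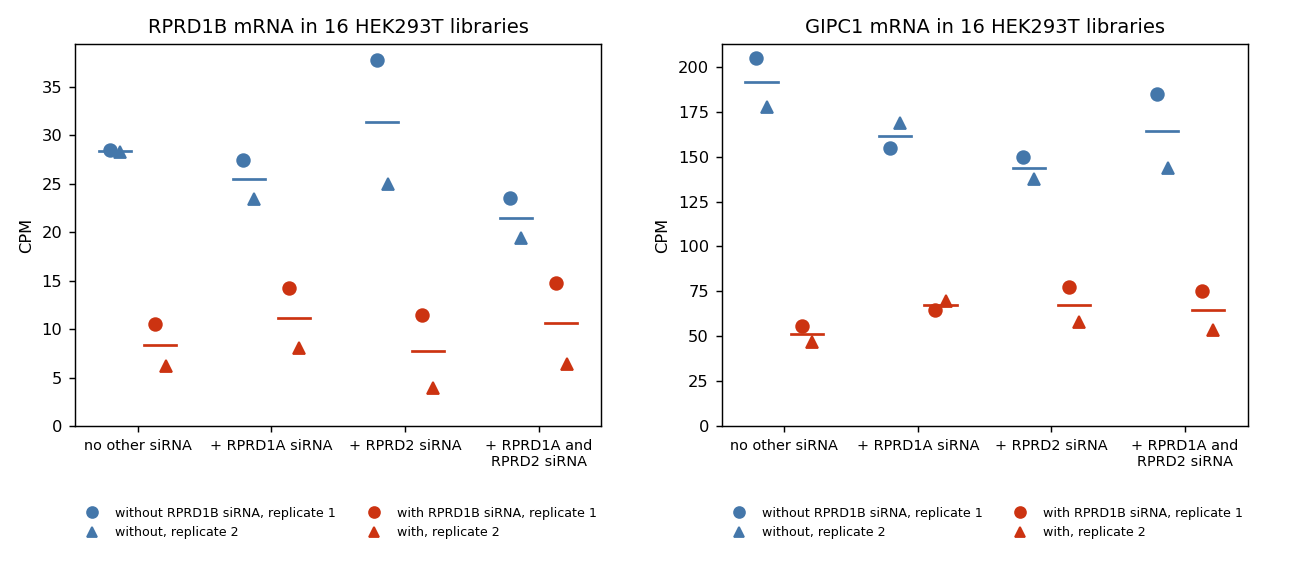
RPRD1B (left) and GIPC1 (right) mRNA in CPM in the 16 HEK293T libraries, by the other siRNAs present; points are single libraries (circles replicate 1, triangles replicate 2) and bars the mean of each pair. In both genes every library with RPRD1B siRNA (red) lies below every library without it (blue).

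Few transcripts passed the test for RPRD1B siRNA in the 16 libraries. Of 11834 genes tested, 23 (0.194%) were called at an adjusted p under 0.05, of which 18 (0.152%) were lower and 5 (0.0423%) were higher, and 1220 had an unadjusted p under 0.05. Without the library that stood apart, 107 of 12255 genes (0.873%) were called, 68 (0.555%) lower and 39 (0.318%) higher. All 23 genes were among the 107, of which they make up 21.5%, and each had the same direction. RPRD1B and GIPC1 had the largest falls and stood away from the other called genes, most of which changed by less than 0.7 on the log2 scale. Both fits rest on the term for replicate number: without it 3 genes were called in the 16 libraries, RPRD1B, GIPC1 and RASL10B, and 5 in the 15 libraries, where SCARNA8 and SCARNA20 were added. The first replicates alone gave 34 calls, 12 of them among the 23 genes, and the second replicates alone gave 2, RPRD1B and GIPC1. In each of these fits all 23 genes kept their direction, but the fits use libraries that also picked these genes.

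**Figure D2:**
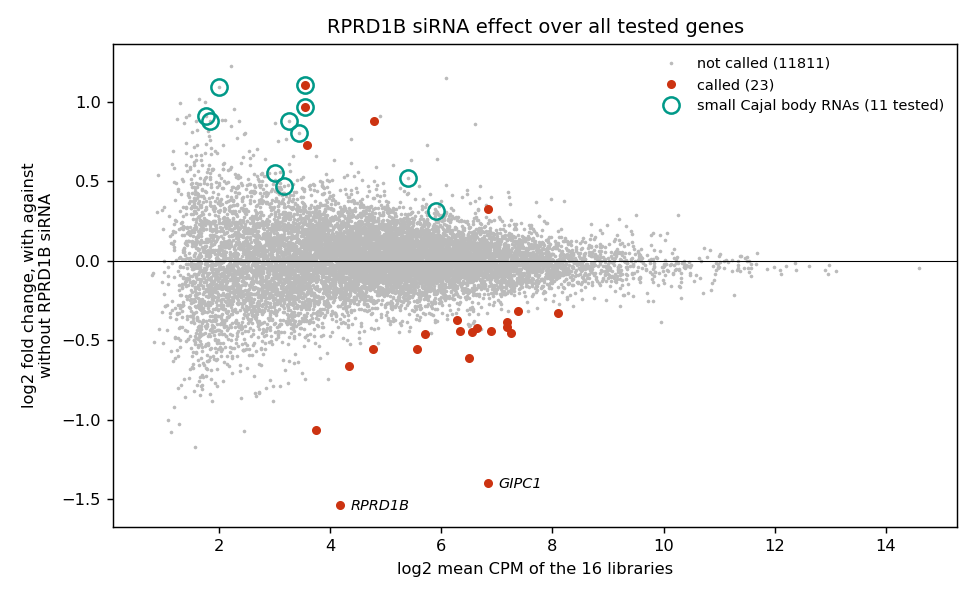
Log2 fold change for RPRD1B siRNA (vertical axis) against the log2 mean CPM (horizontal axis) for the 11834 genes tested in 16 libraries. Red points are the 23 called genes and green rings the 11 tested small Cajal body RNAs. Of these RNAs, 8 pass the filter on low counts without the siRNA libraries, and they lie above 0. SCARNA4, SCARNA14 and SCARNA23 pass it only through libraries with the siRNA, so they had to lie above 0. GIPC1 and RPRD1B are the lowest called points.

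GIPC1 had the largest fall of the called genes after RPRD1B itself, and the lowest adjusted p. GIPC1 (chr19:14477760-14496149, GRCh38, - strand) encodes a PDZ-domain adaptor that links membrane receptors to the motor myosin VI during endocytic transport. It was measured at 47.2 to 77.2 CPM, median 61.4, with RPRD1B siRNA. It was measured at 138 to 205 CPM, median 162, without it. The ranges did not overlap, and in the 8 same-numbered pairs GIPC1 stood at 26.5 to 51.6% of the level without the siRNA. The log2 fold change was -1.40 (SE 0.10, adjusted p 3.26e-09), from 116 to 215 counts per library with the siRNA and 321 to 489 without it. It was -1.41 (SE 0.08) without the library that stood apart, and GIPC1 was called in all 31 alternative analyses, including each replicate number alone. Fits without the ambiguously titled group gave -1.44.

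No other gene listed with GIPC1 was called. Of 18 genes of the GIPC family and of proteins that bind GIPC1, 13 were tested and only GIPC1 was called. Over all genes tested, 0.152% were called lower. Of the 13, 5 were below 0, as were 5870 of all 11834 genes. Their median was 0.08, against 0.00 over all genes tested. On the log2 scale its relative GIPC3 differed by -0.26 (SE 0.11, adjusted p 0.389), MYO6, the myosin that GIPC1 binds, by 0.11 (SE 0.12, adjusted p 0.788), and APPL1, an endosomal adaptor, by 0.08 (SE 0.07, adjusted p 0.721). Of 13 genes listed around GIPC1 on chromosome 19, 8 were tested and again only GIPC1 was called. Its neighbours DDX39A and DNAJB1 had log2 fold changes of 0.13 and -0.17, neither called.

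Besides GIPC1 and RPRD1B, AKR7A2 was the called gene whose ranges did not overlap. AKR7A2, an aldehyde reductase, was measured at 118 to 139 CPM, median 123, with RPRD1B siRNA and at 149 to 216 CPM, median 161, without it. This gave a difference of -0.42 on the log2 scale (SE 0.08, adjusted p 0.0185), and -0.35 without the library that stood apart. Over all tested genes, 8 (0.0676%) had all libraries with the siRNA below all libraries without it, and 2 (0.0169%) the reverse. The others, named here because of these values, were AC121761.1, GPX1, TRMT61A, SP6 and PHLDB3 on the lower side and TMEM231 and SUCLG2 on the higher side, with adjusted p of 0.0752 to 0.320. TMEM231 reached at most 4.35 CPM without the siRNA, and SP6 at most 2.99 CPM with it. The filter on low counts asks for at least 4.30 CPM, before TMM scaling, in 2 libraries. TMEM231 thus passed through libraries with the siRNA and SP6 through libraries without it, which favoured their lack of overlap. Without the library that stood apart the counts were 10 (0.0845%) and 3 (0.0254%).

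RASL10B, a Ras-like small GTPase, had the next largest fall. It was measured at 6.01 to 13.1 CPM, median 8.47, with the siRNA and at 11.1 to 29.1 CPM, median 16.7, without it, so that the ranges overlapped. The fitted difference was -1.07 on the log2 scale (SE 0.17, adjusted p 0.00806), and -0.95 without the library that stood apart. SLC46A1, the proton-coupled folate transporter, followed with -0.66 (SE 0.13), from a median of 24.6 CPM without the siRNA to 16.4 CPM with it. WNT10B, a Wnt ligand, was at 15.4 to 27.1 CPM, median 22.5, with the siRNA and at 24.6 to 36.7 CPM, median 33.4, without it, which gave -0.55 (SE 0.11, adjusted p 0.0364). Without the library that stood apart SLC46A1 had -0.63 and WNT10B -0.59. RASL10B lies on the same strand as part of TAF15, so reads at their overlap may have been assigned to either gene.

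MRPS18A, a mitochondrial ribosomal protein, was at 51.7 to 93.0 CPM, median 80.0, with the siRNA and at 91.6 to 127 CPM, median 106, without it, a log2 fold change of -0.45 (SE 0.08). NDUFAF3, an assembly factor of respiratory complex I, had -0.44 (SE 0.09), C19orf70, a subunit of the MICOS complex of the inner membrane, -0.42 (SE 0.09), and MAVS, the antiviral adaptor of the outer membrane, -0.31 (SE 0.07). These 4 genes are set together after their values were seen, and they are not a list with a count of its own. A count over all mitochondrial ribosomal proteins, also chosen afterwards, gave 74 tested, 44 of them below 0, 1 called (MRPS18A) and a median of -0.02, against 0.00 over all genes. Of all 11834 genes, 5870 were below 0 and 18 (0.152%) were called lower. MRPL12 was called as well without the library that stood apart, at -0.24 (SE 0.05).

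The other lower genes have varied roles. DBNL, an actin-binding adaptor, was at 30.1 to 44.4 CPM with the siRNA and at 42.1 to 84.9 CPM without it; the highest value came from the library that stood apart, and the log2 fold change went from -0.56 to -0.44 without it, still called. SERPINH1, the collagen chaperone HSP47, was at 99.8 to 153 CPM with and at 134 to 223 CPM without the siRNA, with a log2 fold change of -0.45 (SE 0.08). The log2 fold changes of the remaining members were -0.61 for TMEM141, -0.44 for SWI5, a homologous recombination factor, -0.38 for NAT10, an RNA acetyltransferase, -0.37 for RAB11FIP4, an effector of Rab11, and -0.33 for TRIM28, a corepressor recruited by KRAB zinc finger proteins. AC027307.2, an annotated antisense RNA, had -0.46, but it lies opposite APC2 and the strand setting of the counting is not given in the sources used here, so its reads cannot be told apart from those of APC2. SWI5 and C19orf70 likewise overlap GOLGA2 and RPL36 on the other strand. Such overlaps are also annotated for RPRD1B (TGM2 among others), GIPC1 (SNRPGP15), SLC46A1 (SARM1 among others) and MRPS18A (RSPH9). The same holds for NDUFAF3 (DALRD3 among others), DBNL (PGAM2), RAB11FIP4 (AC003101.3) and MAP3K5 (AL024508.1 among others). TMEM141 overlaps AL355987.3 on its own strand. Reads at these overlaps may have been assigned to either gene.

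The lower genes were richer in G and C than most. The 18 lower genes had a median transcript GC content of 57.6%, against 47.9% over all tested genes. Across 8685 genes, which are not independent replicates, Spearman's correlation of the log2 fold change with GC content was -0.30, and it was -0.14 without the library that stood apart. With a GC correction of each library, 21 genes were called, 18 of the 23 among them, and with both the correction and the omission of that library all 23 were called.

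**Figure D3:**
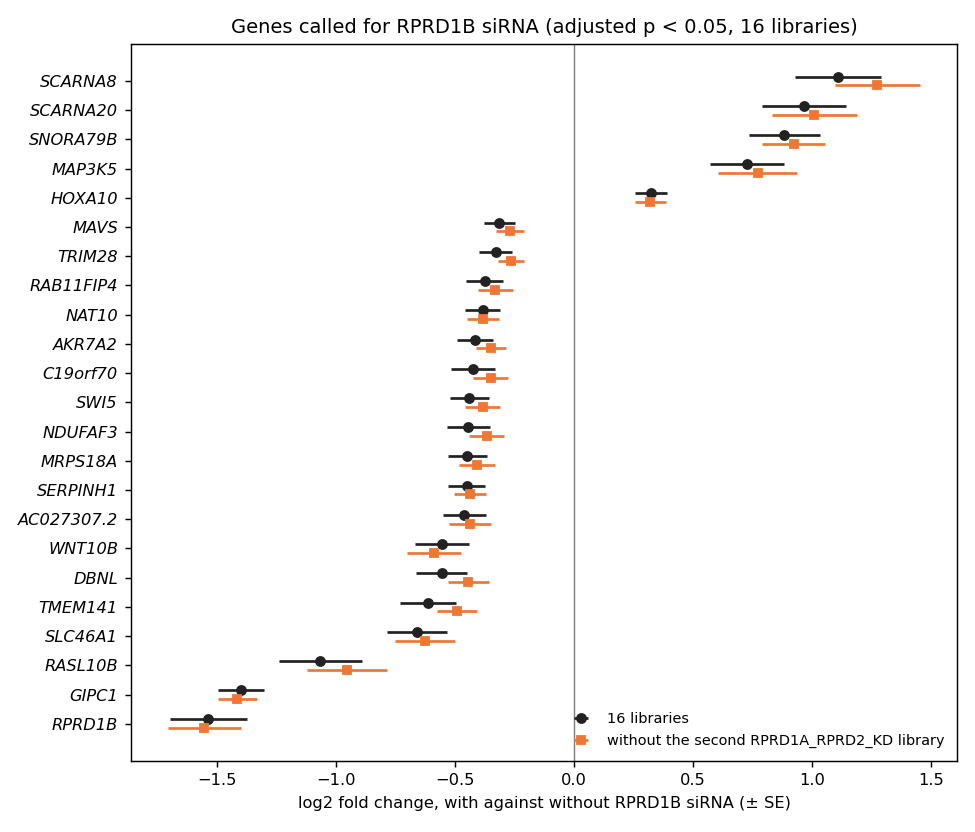
Log2 fold changes with SE (horizontal axis) of the 23 genes called for RPRD1B siRNA, in the fit of 16 libraries (black) and without the second RPRD1A_RPRD2_KD library (orange). The 18 lower and 5 higher genes keep their side of 0 in both fits.

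On the higher side, 2 of the 5 called genes code for proteins. MAP3K5, the stress-activated kinase ASK1, was at 9.47 to 19.04 CPM, median 13.9, with the siRNA and at 6.86 to 12.5 CPM, median 8.86, without it. The rise was 0.73 on the log2 scale (SE 0.16, adjusted p 0.0498), or 0.77 without the library that stood apart, and it was called in 9 of 30 alternatives, the fewest of the 23 genes. HOXA10, a homeobox transcription factor, was at 107 to 161 CPM with the siRNA and at 78.6 to 131 CPM without it, a log2 difference of 0.32 (SE 0.07, adjusted p 0.0364). HOXA10 shares its strand with HOXA9 over part of its length, and HOXA10-AS lies opposite.

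The other 3 higher genes are small non-coding RNAs: SCARNA8, SCARNA20 and SNORA79B. Small Cajal body RNAs (scaRNAs) guide the modification of spliceosomal RNAs in the Cajal body, and H/ACA small nucleolar RNAs (SNORA) guide pseudouridylation, mainly of ribosomal RNA. Both are cut out of introns of host genes, and RNAs of the H/ACA class carry an ACA triplet just before their 3′ end. With the library that stood apart left out, further RNAs of these classes were called, which makes 10 in either fit. SCARNA4, 1 of the 10, passed the filter on low counts in the 16 libraries only through libraries with the siRNA. The sequences of the 9 others follow, since these RNAs led the higher side, and SCARNA4 is named only. They come from GENCODE release 29 (GRCh38), 5′ to 3′, with the ACA triplet that lies 3 bases from the 3′ end in capitals where there is one.
SCARNA8, chr9:19063656-19063786, - strand, intron of HAUS6: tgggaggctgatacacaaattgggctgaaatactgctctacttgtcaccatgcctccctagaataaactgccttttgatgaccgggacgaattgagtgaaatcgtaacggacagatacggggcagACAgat
SCARNA20, chr17:60231516-60231646, - strand, intron of USP32: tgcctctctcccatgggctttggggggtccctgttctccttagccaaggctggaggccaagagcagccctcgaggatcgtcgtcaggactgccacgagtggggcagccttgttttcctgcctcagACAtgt
SNORA79B, chr14:20323179-20323326, - strand, intron of CCNB1IP1: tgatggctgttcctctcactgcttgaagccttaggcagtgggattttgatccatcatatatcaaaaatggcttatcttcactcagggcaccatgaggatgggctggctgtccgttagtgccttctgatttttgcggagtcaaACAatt
SNORA79, chr14:81202695-81202834, - strand, intron of GTF2A1: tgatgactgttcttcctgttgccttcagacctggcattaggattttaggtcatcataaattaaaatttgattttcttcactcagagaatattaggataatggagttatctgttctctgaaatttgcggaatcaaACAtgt
SCARNA1, chr1:27834401-27834566, + strand, intron of PPP1R8: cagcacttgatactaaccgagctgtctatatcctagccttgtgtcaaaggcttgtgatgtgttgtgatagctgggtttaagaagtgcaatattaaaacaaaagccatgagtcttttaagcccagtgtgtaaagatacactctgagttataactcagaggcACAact
SCARNA22, chr4:1974636-1974760, + strand, intron of NSD2: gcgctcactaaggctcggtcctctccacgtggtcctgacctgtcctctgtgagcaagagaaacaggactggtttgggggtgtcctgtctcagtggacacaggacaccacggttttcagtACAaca
SCARNA11, chr12:6581474-6581609, - strand, intron of CHD4: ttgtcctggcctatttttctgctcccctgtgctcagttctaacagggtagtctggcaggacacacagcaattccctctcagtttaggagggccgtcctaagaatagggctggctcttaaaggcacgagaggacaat
SCARNA13, chr14:95533355-95533629, - strand, intron of SNHG10: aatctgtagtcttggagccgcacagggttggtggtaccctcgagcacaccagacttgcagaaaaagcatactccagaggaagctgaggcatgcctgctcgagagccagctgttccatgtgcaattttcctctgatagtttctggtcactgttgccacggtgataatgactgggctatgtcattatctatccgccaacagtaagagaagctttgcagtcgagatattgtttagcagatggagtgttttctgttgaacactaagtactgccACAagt
SNORA11F, chr10:73126080-73126207, - strand: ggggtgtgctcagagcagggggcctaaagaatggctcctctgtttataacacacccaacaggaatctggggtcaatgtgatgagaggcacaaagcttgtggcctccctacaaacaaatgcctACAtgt
The triplet is at this position in 8 of the 9. SCARNA11 is the exception by position only: its printed sequence ends in acaat, so its ACA lies nearer the annotated end. Of all GENCODE transcripts of these types, 53.1% of 49 scaRNAs and 29.4% of 955 snoRNAs hold ACA at this position on their own strand. Both shares pool all transcripts of the type, C/D RNAs included. They are thus not the share among H/ACA RNAs, which was not computed. SNORA79 and SNORA79B are related copies with 67.7% identity, 105 of 155 aligned columns.

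SCARNA8 was measured at 11.1 to 25.0 CPM, median 13.9, with RPRD1B siRNA and at 3.90 to 14.04 CPM, median 6.28, without it. The highest library without the siRNA was the one that stood apart, and without it the ranges did not overlap. The log2 fold change was 1.11 (SE 0.18, adjusted p 0.00806), and 1.27 (SE 0.18) without that library. SCARNA20 was at 10.6 to 19.1 CPM, median 16.3, with the siRNA and at 4.77 to 11.8 CPM, median 7.86, without it, a rise of 0.97 on the log2 scale (SE 0.18, adjusted p 0.0185), and 1.01 without that library. Its ranges overlapped through the second CTRL and first RPRD1A_KD libraries on one side and the first triple-siRNA library on the other. SNORA79B was at 21.6 to 42.9 CPM, median 39.0, with the siRNA and at 9.54 to 34.6 CPM, median 19.6, without it, a rise of 0.88 on the log2 scale (SE 0.15, adjusted p 0.00911), and 0.92 without that library. SNORA79B overlapped between the groups through the second CTRL library at 34.6 CPM and 2 others at 23.4 and 24.4 CPM. Counts behind these values are small: 24 to 58 per library for SCARNA8 and 20 to 51 for SCARNA20 with the siRNA, and 9 to 42 and 10 to 26 without it.

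The whole scaRNA class was then examined, a choice made after these values were seen. Of 25 SCARNA names in the tables, 11 passed the filter on low counts, which asks for at least 4.30 CPM, before TMM scaling, in 2 libraries. Of these 11, 8 pass through the libraries without the siRNA alone. SCARNA4, SCARNA14 and SCARNA23 passed only through libraries with it, so that they had to be higher there. As a description of the RNAs that passed, the log2 fold change ran from 0.32 (SCARNA22) to 1.11 (SCARNA8) and 2 were called. An unadjusted p under 0.05 on the higher side was reached by 4.69% of all genes tested and by each of the 8 RNAs that pass without the siRNA libraries. These 8 include SCARNA8 and SCARNA20, whose calls in the same libraries led to the class being examined. Those 2 RNAs could not have come out otherwise. Without the library that stood apart 12 were tested and 7 were called, where 0.318% of all genes tested were called higher. SCARNA11, SCARNA1, SCARNA13, SCARNA22 and SCARNA4 were then added to SCARNA8 and SCARNA20. The call of SCARNA4 carries the limit of the filter given above, and passing through 1 side alone was not examined again for this fit. The RNAs that did not pass the filter are not counted here, and 5 of the 25 names were at 0 in every library.

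Summed over the 25 names, scaRNAs made up 159 to 272 CPM with RPRD1B siRNA and 78.9 to 203 CPM without it. The sum also followed replicate number. In the first replicates it was 159 to 203 CPM with the siRNA and 78.9 to 144 CPM without it, and in the second replicates 226 to 272 and 118 to 203 CPM. The groups thus overlapped over all 16 libraries but not within either replicate number. Within same-numbered pairs of the same background the sum was higher with the siRNA in 8 of 8, by 1.15 to 2.20 times. The widest ratios, 2.20 and 1.97, came from the RPRD2 siRNA background, where the sum without RPRD1B siRNA was lowest (78.9 and 118 CPM), and the narrowest, 1.15, from the pair that holds the library that stood apart.

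**Figure D4:**
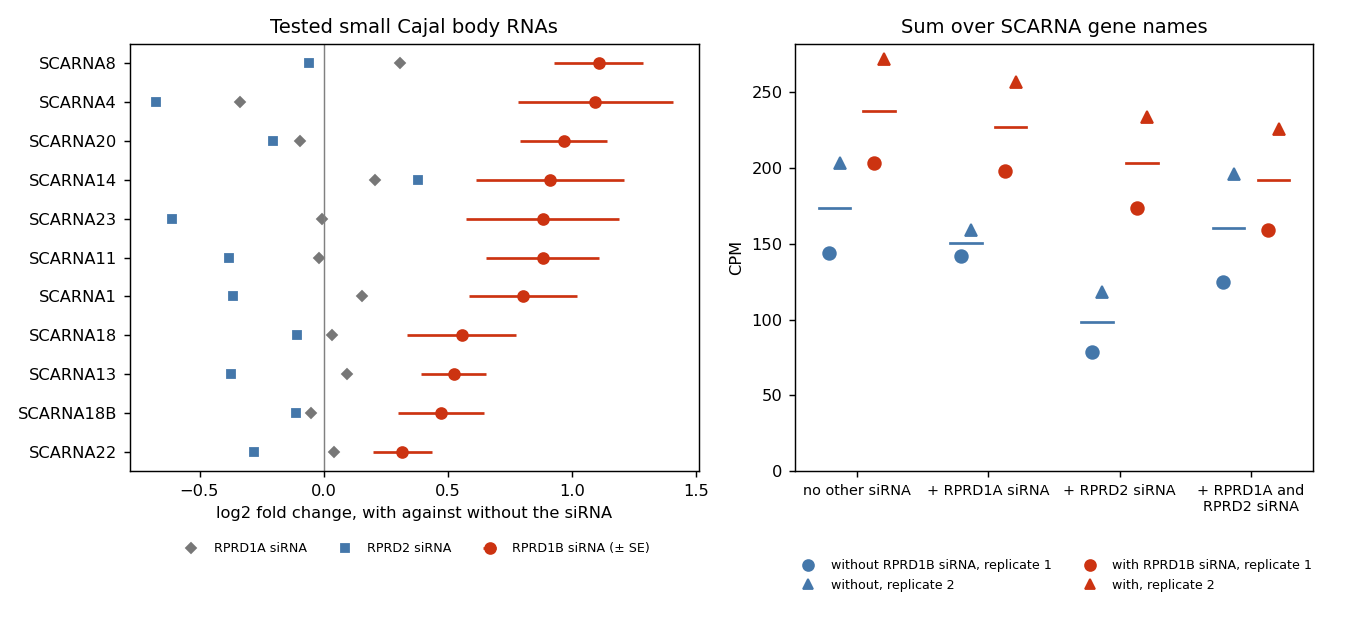
Left, log2 fold change (horizontal axis) of the 11 tested small Cajal body RNAs for RPRD1B siRNA (red, with SE), RPRD1A siRNA (grey) and RPRD2 siRNA (blue). Right, summed CPM of the 25 SCARNA names per library, by background, with bars at the mean of each pair. On the left the red points lie above 0. SCARNA4, SCARNA14 and SCARNA23 had to, as they passed the filter on low counts only through libraries with the siRNA. On the right the red point exceeds the blue point of the same shape in each background.

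The related classes moved less evenly. Of 160 H/ACA small nucleolar RNA names, 12 were tested and 8 were above 0, as were 5964 of all 11834 genes. On the higher side 4 had an unadjusted p under 0.05 (4.69% of all genes) and 1, SNORA79B, was called (0.0423% of all genes). The median was 0.25. SNORA79, SNORA11F and SNORA79B were called without the library that stood apart, where 0.318% of all genes were called higher. In every library without the siRNA these called RNAs were above the 4.30 CPM of the filter, the lowest value being 5.64 CPM (SNORA79). Whether other H/ACA RNAs passed the filter only through libraries with the siRNA was not examined. SNORA73B, among the 4 above, had a median of 2.44 CPM and at most 4.68 CPM without it. Of 301 C/D small nucleolar RNA names, 4 were tested, 2 above and 2 below 0, none called. For the same 11 scaRNAs, the RPRD1A siRNA effect had a median of 0.04 and none reached an unadjusted p under 0.05, which 838 of 11834 genes (7.08%) did. The RPRD2 siRNA effect had a median of -0.28, with 10 of 11 below 0 and 3 at an unadjusted p under 0.05, where 642 genes (5.43%) were, and none was called.

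The host transcripts of these RNAs were not called. HAUS6, a subunit of the augmin complex and host of SCARNA8, was at 57.8 to 76.5 CPM with the siRNA and at 55.2 to 92.9 CPM without it, a log2 fold change of -0.04 (SE 0.08). USP32, the host of SCARNA20, had 0.24 (SE 0.12, adjusted p 0.504), and CCNB1IP1, the host of SNORA79B, -0.12 (SE 0.10, adjusted p 0.702). GTF2A1, PPP1R8, NSD2, CHD4 and SNHG10, hosts of SNORA79, SCARNA1, SCARNA22, SCARNA11 and SCARNA13, ranged from -0.01 to 0.16. These hosts were named for the small RNAs they hold. Mature RNAs of these classes are not typical templates of a library primed on poly(A), and which RNA form gave the reads was not examined, since the tables hold 1 count per gene.

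More genes were named without the library that stood apart. On the lower side these were C6orf226 at -0.84 (SE 0.21), ARHGAP39 at -0.75 (SE 0.19), NR1H2, the oxysterol receptor LXR beta, at -0.70 (SE 0.18), NFIX, a transcription factor, at -0.59 (SE 0.14) and SFXN2, a mitochondrial carrier, at -0.52 (SE 0.13). NR1H2 was at 4.22 to 12.5 CPM with the siRNA and at 10.9 to 16.95 CPM in the 7 remaining libraries without it. LIPE-AS1 had -0.61, but it lies opposite several genes and its reads cannot be assigned without strand. On the higher side HACE1, a ubiquitin ligase, had 0.73 (SE 0.19), with 7.98 to 14.8 CPM with the siRNA and 4.92 to 8.66 CPM without it. For CRTC2, a coactivator of CREB, and ATXN2L, a stress granule protein, the values were 0.65 (SE 0.15) and 0.60 (SE 0.12). CRTC2 was at 0 CPM in the library that stood apart and at 10.3 to 36.4 CPM in the 7 others without the siRNA, against 25.2 to 53.9 CPM with it. AC009501.1, a processed pseudogene whose reads may come from its parent gene, was at 0.334 CPM in that library and 10.3 to 77.5 CPM in the 7 others, with a log2 fold change of 0.87 (SE 0.18). None of these genes was called in the 16 libraries, where their adjusted p ranged from 0.0525 to 0.327.

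In the 16 libraries the 4 backgrounds gave the same direction for the leading genes. These genes were picked by an effect over the same backgrounds and libraries, which favours such agreement, so it is a description only. For GIPC1 the log2 fold change was -1.89 with no other siRNA, -1.26 with RPRD1A siRNA, -1.09 with RPRD2 siRNA and -1.35 with both. For RPRD1B the values were -1.80, -1.23, -1.97 and -1.08, in the same order. SCARNA8 had 1.04, 1.20, 1.41 and 0.87, and SNORA79B 0.69, 0.98, 1.56 and 0.44. RASL10B varied more, with -1.54, -0.41, -0.89 and -1.46. The background with both siRNAs holds the library that stood apart, and without it its value was -1.45 for GIPC1, -0.92 for RPRD1B, 1.36 for SCARNA8, 0.22 for SNORA79B and -1.05 for RASL10B. In that background some other called genes moved further: SERPINH1 stood at 0.09 and AC027307.2 at -0.02, and SLC46A1 went from -0.63 to -0.25, DBNL from -0.83 to -0.32 and C19orf70 from -0.66 to -0.28. Tests of whether the RPRD1B effect depended on another siRNA called 0 genes (0%) with edgeR for RPRD1A and 0 (0%) for RPRD2, and an unadjusted p under 0.05 was reached by 592 and 584 genes. Without the library that stood apart these counts were 0 and 2 (0.0163%), the latter both higher. The interaction of GIPC1 was 0.19 (SE 0.18) with RPRD1A siRNA and 0.36 (SE 0.18, adjusted p 0.941) with RPRD2 siRNA.

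**Figure D5:**
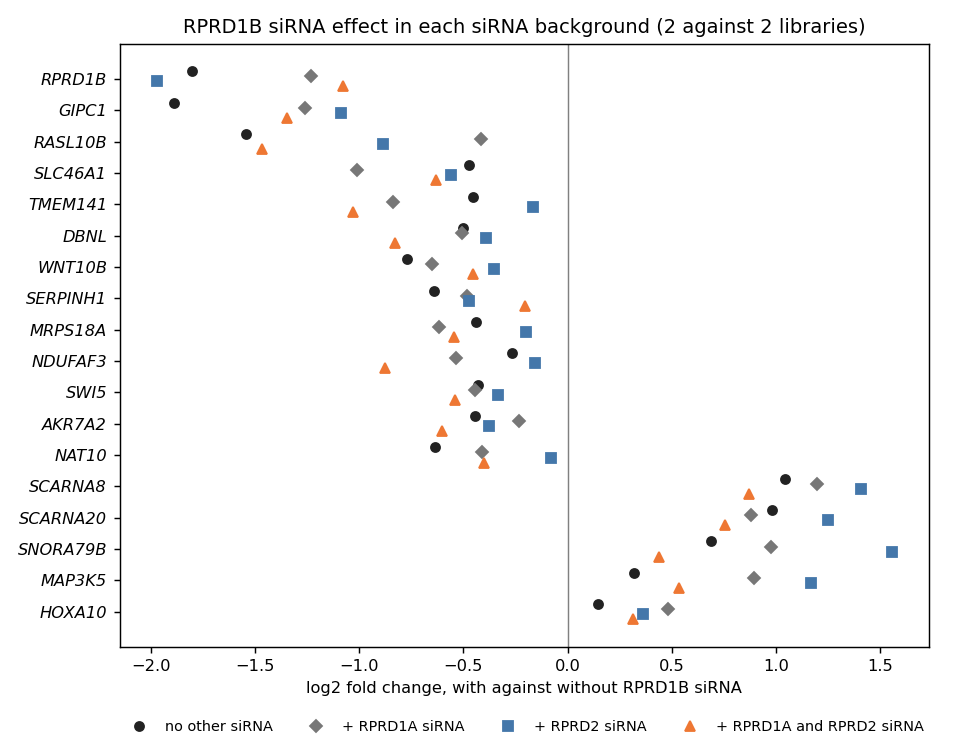
Log2 fold change for RPRD1B siRNA (horizontal axis) in each of the 4 siRNA backgrounds, for 18 of the 23 called genes; each point is a comparison of 2 with 2 libraries. In these 16 libraries, which also picked the genes, all points of the 13 lower genes lie below 0 and those of the 5 higher genes above 0. Without the second RPRD1A_RPRD2_KD library the point of SERPINH1 with both siRNAs is at 0.09.

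The RPRD1B effect was also tested against the effects of the other siRNAs in the same fit. By the same rule, RPRD1A siRNA had 19 called genes (0.161%) and RPRD2 siRNA 2 (0.0169%). The difference between the RPRD1B and RPRD1A effects was called for 25 genes (0.211%), 9 lower (0.0761%) and 16 higher (0.135%) for RPRD1B. That between the RPRD1B and RPRD2 effects was called for 5 (0.0423%), 2 lower (0.0169%) and 3 higher (0.0254%). GIPC1 was in both: its log2 fold change was -1.40 for RPRD1B, 0.05 for RPRD1A and -0.05 for RPRD2, and the differences were -1.45 (SE 0.13, adjusted p 1.63e-06) and -1.35 (SE 0.14, adjusted p 8.41e-06). SNORA79B differed from the RPRD2 effect by 1.21 (SE 0.21, adjusted p 0.0118), with 0.88 for RPRD1B and -0.33 for RPRD2, but its difference of 0.75 from the RPRD1A effect was not called (adjusted p 0.172). RASL10B differed from the RPRD1A effect (-1.28, SE 0.24, adjusted p 0.0157), as did HOXA10 (0.64, SE 0.09), MAVS (-0.43, SE 0.09), TRIM28 (-0.45, SE 0.10) and AC027307.2 (-0.88, SE 0.13). For SCARNA8 and SCARNA20 neither difference was called, with adjusted p of 0.0662 to 0.245. Of the targeted genes, RPRD1A and RPRD1B were called in the first of these contrasts and RPRD1B and RPRD2 in the second.

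The pathways known for RPRD1B held few calls. In the list of 8 CTD-interaction domain proteins all were tested and only RPRD1B, the target of the siRNA, was called, where 0.194% of all genes were. PCF11, a termination factor, had a log2 fold change of 0.09 (SE 0.13), SCAF4 of -0.07 (SE 0.16) and SCAF8 of 0.17 (SE 0.10), none called. Of 14 CTD phosphatases and RPRD partners none was called; RPAP2 was at 20.3 to 39.6 CPM with the siRNA and at 23.7 to 44.4 CPM without it, a log2 fold change of -0.05 (SE 0.10), and SSU72, another CTD phosphatase, had -0.04 (SE 0.07). Of 12 tested subunits of RNA polymerase II 10 were below 0, as were 5870 of all 11834 genes, and none was called. Their median was -0.08, and -0.03 without the library that stood apart. POLR2A, the subunit that carries the CTD, had -0.03 (SE 0.06). None of 28 elongation factors and CTD kinases was called in 16 libraries, and NELFE, a subunit of the pausing factor NELF, was called without the library that stood apart, at -0.39 (SE 0.09). None of 24 cleavage, polyadenylation and termination factors was called, and their median was 0.03.

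Wnt pathway members and targets gave 20 tested genes, 15 above 0 and none called, with a median of 0.05. Of all 11834 genes, 5964 were above 0 and 0.194% were called. The list does not hold WNT10B, which was called lower (-0.55). AXIN2, a direct target of beta-catenin, was at 3.17 to 7.90 CPM with the siRNA and at 6.27 to 11.5 CPM without it, a log2 difference of -0.32 (SE 0.20, adjusted p 0.597). CCND1, which encodes cyclin D1, was at 44.0 to 66.0 CPM with and at 47.7 to 64.0 CPM without the siRNA, and the log2 difference was 0.01 (SE 0.09, adjusted p 0.986). MYC had 0.23 (SE 0.16), and 0.05 (SE 0.10) without the library that stood apart. All 30 cyclins and cell cycle genes were tested and none was called; CCNB1, the mitotic cyclin B1, had -0.08 (SE 0.06). The ranges of these genes overlapped between the groups.

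Lists of stress and silencing genes also held no call in 16 libraries. These were 19 tested p53 targets (median 0.02), 19 ATF4 targets (-0.05), 5 interferon response genes (0.06) and 13 genes of the small RNA silencing machinery (0.04). Of 11 tested histone genes none was called in 16 libraries. Without the library that stood apart, H1FX, a linker histone, was lower (-0.30, SE 0.06) and HIST1H2AC, a core histone, higher (1.23, SE 0.29). HIST1H2AC rests on 6 to 23 counts per library with the siRNA and 1 to 14 without it. Of the libraries without it, only the first RPRD2_KD library, at 6.07 CPM, was above the 4.30 CPM of the filter on low counts. In the 16 libraries HIST1H2AC therefore passed that filter only through libraries with the siRNA, which favours a higher value there.

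The series also holds libraries of Flp-In T-REx 293 cells, which carry a tetracycline-controlled promoter system and in which RPRD1B was raised. RPRD1B_FL_TET, treated with tetracycline, was compared with FLP_TET, 2 libraries each, and 133 of 11948 genes (1.11%) were called, 106 (0.887%) lower and 27 (0.226%) higher. RPRD1B was at 83.9 and 64.6 CPM in RPRD1B_FL_TET and at 29.5 and 29.2 CPM in FLP_TET, a log2 difference of 1.34 (SE 0.19, adjusted p 0.000323). Of the 23 genes called for RPRD1B siRNA 21 were tested there. Of these, 14 had the opposite sign, among them RPRD1B, which was raised in this line, and only RPRD1B was called. GIPC1 was at 230 and 229 CPM in RPRD1B_FL_TET and at 177 and 205 CPM in FLP_TET, a log2 difference of 0.27 (SE 0.15, adjusted p 0.557). Without tetracycline the same line compared with FLP gave 0.39 for GIPC1, not called, and 0.34 for RPRD1B, not called. SNORA79B was at 0.428 to 4.45 CPM in all 8 Flp-In libraries, below every HEK293T library, and SCARNA8 and SCARNA20 did not pass the filter on low counts. Of the 107 genes, 99 were tested, 52 had the opposite sign and 2 were called, RPRD1B and JMJD4, the latter named for this result. The share of opposite signs over all genes tested in both cell lines was not computed, so neither count of signs is read as a result.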

How the data were processed

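The authors deposited 1 table of raw read counts by gene name for each library, and the submitters' processing notes name FastQC, STAR, HTSeq, DESeq2 and GRCh38, with no versions or strand setting. RNA was labelled polyA and libraries were made with a QuantSeq 3′ kit (REV), per the labels' protocols. The closing rows that name no gene were left out; reads outside genes were 27.4 to 36.7%. Counts were fitted in R 4.3.3 with edgeR 4.0.16 (filterByExpr by group with a minimum count of 10, TMM, quasi-likelihood test, Benjamini-Hochberg adjusted p under 0.05). CPM uses TMM library sizes, and SE was derived from the fold change and its F. Counting floors cover counting error only, as molecular identifiers are absent. The code was tested on simulated data. Coordinates, overlaps and GC content come from GENCODE release 29, where 54814 of 58138 names matched 1 gene. Members and gene lists were chosen with earlier results of these data known. Named genes are the 3 targets, up to 12 called genes per direction with a mean CPM of 10 or more in each fit, up to 3 genes per interaction, and list members called or central to a list; all others were named after their values were seen, and 1 gene is not reported here. Alternatives used RLE size factors, DESeq2 1.42.0, limma 3.58.1 voom with quality weights, a robust fit, other filters, omitted libraries, single replicate numbers and GC correction.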

Additional observations from a re-analysis of the deposited data

Results flagged for a closer look

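The second RPRD1A_RPRD2_KD library was far from the 7 others without RPRD1B siRNA on the first principal component (-59.6) and in its correlation with GC content (0.452). DBNL was far higher in that library than in the 7 others, at 84.9 CPM. MRPS18A was far lower in the first RPRD1A_RPRD1A_KD library than in the 7 others with the siRNA, at 51.7 CPM, and without that library its log2 fold change was -0.40 (adjusted p 0.0571). The 4 values come from 42 groups examined, and chance flags about 1 in 20.

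Without the second RPRD1A_RPRD2_KD library, the RPRD1B effect differed with RPRD2 siRNA for 2 of 12255 genes (0.0163%). R3HDM2, a protein with an R3H domain, had log2 fold changes for RPRD1B siRNA of -0.66 with no other siRNA, -0.23 with RPRD1A siRNA, 0.56 with RPRD2 siRNA and 0.32 with both, an interaction of 0.94 (SE 0.18, adjusted p 0.0349). CHTF8, a subunit of a clamp loader complex, had -0.40, -0.38, 0.33 and -0.03, an interaction of 0.57 (SE 0.11, adjusted p 0.0349). Neither was called in 16 libraries, where the interactions were 0.91 and 0.38.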

How the results depend on the processing

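The direction of the 23 genes was kept in every alternative that tested them, but the count of calls was not. The alternatives use the libraries that also picked these genes. The RPRD1B effect gave 45 calls with DESeq2, 73 with limma voom, 143 with no filter on low counts, 4 with a minimum log2 change of 1 in size, 2 from replicate number 2 alone, 4 without the RPRD1A_RPRD1A_KD group, and, added after the data were seen, 42 without that group and the second RPRD1A_RPRD2_KD library and 111 without that library after GC correction with the replicate block. Omitting 1 library at a time gave 5 to 107, the highest without the second RPRD1A_RPRD2_KD library and the lowest without the first RPRD1A_RPRD1A_KD library; the count moved by over 1.5 times also without the first CTRL library (8), the second RPRD1B_KD library (12), the first RPRD1A_KD library (10), either RPRD2_KD library (10 and 46), the second RPRD1A_RPRD1A_KD library (9), the second RPRD1B_RPRD2_KD library (10) and either triple-siRNA library (9 and 9). With no replicate block the RPRD1B effect gave 3 calls, or 5 without the second RPRD1A_RPRD2_KD library. Same-numbered libraries deviated together with a mean Pearson's correlation of 0.33 across genes over 28 pairs of groups (-0.01 to 0.52), and 0.40 (0.29 to 0.52) over 21 pairs without RPRD1A_RPRD2_KD; the numbers come from the titles alone. RLE size factors (24), a robust fit (33), a mean count of 50 or more (19), pairwise interactions in the fit (30), replicate number 1 alone (34) and GC correction (21) stayed within 1.5 times.

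With no filter, the interactions gave 14 (RPRD1A) and 8 (RPRD2) calls, and without the second RPRD1A_RPRD2_KD library the latter gave 2. The difference from the RPRD1A effect gave 127 with no filter, 12 with no replicate block and 55 without that library, and the difference from the RPRD2 effect 114, 2 and 20. Without that library the RPRD1A effect had 67 calls and the RPRD2 effect 16. A replicate block in the Flp-In comparison gave 121. Among the 23 genes, the number of alternatives with a call ran from 9 of 30 (MAP3K5) to 31 of 31 (GIPC1). Depth limits the RNAs of low count: SCARNA14 and SCARNA23 had 4 to 19 counts per library with the siRNA and SNORA72 0 to 12.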
